A study of Homo sapiens with 8 samples.

Results

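HIF-1β ChIP-seq in HCT-116 cells, a human colorectal carcinoma line, gave 3790 peaks in replicate 2, and 2028 of them shared no base with any peak of replicate 3. These 2028 peaks, called members here, were chosen by the absence of a replicate 3 peak, so their absence there is a matter of selection and not a result. They were divided by whether they overlapped a site of 1 of the other 3 lines studied, PC-3 (prostate cancer), T47D (breast cancer) or A549 (lung cancer). A site is a region with overlapping peaks (1 bp or more) in both replicates of a line. Of the members, 414 lay over such a site (matched) and 1614 did not (unmatched), and the other 1762 peaks of the library were shared with replicate 3. All 8 libraries came from cells kept at 0.5% oxygen for 16 h and precipitated with an antibody to HIF-1β, and no other agent or allele is given. HCT-116 is 1 cell line, and the labels do not say whether its replicates were separate cultures. No normoxic or input library was used here. The 8 lists held 1042 to 3790 peaks each and no reads, so sequencing depth is unknown. Each peak carried a score that the lists do not explain, with a lowest value close to 50 in every list. Medians, fractions of pairs and percentiles of scores were taken only within a library. Scores of other libraries printed beside a member are listed values, not known to be on a common scale.

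HIF-1β, also known as ARNT, is the stable partner that pairs with an oxygen-regulated HIF-α subunit. In low oxygen the prolyl hydroxylases that mark HIF-α for destruction are less active, and the dimer binds DNA at the core letters ACGTG or GCGTG, often near genes of glycolysis, pH control, angiogenesis and oxygen sensing. HIF-1β also partners the aryl hydrocarbon receptor, whose element holds GCGTG, and other factors of the same family.

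The central 200 bases of the highest-scoring members that lay clear of annotated untranslated regions show what the peaks held at their centres (GRCh37, plus strand, 5′ to 3′). Capitals mark ACGTG or GCGTG, or their complement CACGT or CACGC. Of the matched windows shown, that in an intron of KCTD1 held 4 core motifs and the intergenic one whose nearest start is OR4D9 held 0.
KCTD1, chr18:24155266-24155465: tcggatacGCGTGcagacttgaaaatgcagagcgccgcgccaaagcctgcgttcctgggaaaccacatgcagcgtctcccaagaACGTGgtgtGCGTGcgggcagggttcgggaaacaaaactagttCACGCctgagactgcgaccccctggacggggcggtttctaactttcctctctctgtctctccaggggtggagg
OR4D9, chr11:59318188-59318387: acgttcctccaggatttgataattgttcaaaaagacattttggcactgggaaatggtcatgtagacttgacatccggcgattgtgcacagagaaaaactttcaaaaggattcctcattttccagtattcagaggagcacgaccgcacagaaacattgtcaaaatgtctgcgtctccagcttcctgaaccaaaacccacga
Of the 3 unmatched windows, that beside the start of RPS21 held 2 core motifs, and those in an intron of KCTD2 and between genes far from MSRB3 held 0.
RPS21, chr20:60961956-60962155: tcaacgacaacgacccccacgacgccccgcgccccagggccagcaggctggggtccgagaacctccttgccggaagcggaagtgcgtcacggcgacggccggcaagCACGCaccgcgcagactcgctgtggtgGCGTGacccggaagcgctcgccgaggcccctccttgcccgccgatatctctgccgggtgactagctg
KCTD2, chr17:73030620-73030819: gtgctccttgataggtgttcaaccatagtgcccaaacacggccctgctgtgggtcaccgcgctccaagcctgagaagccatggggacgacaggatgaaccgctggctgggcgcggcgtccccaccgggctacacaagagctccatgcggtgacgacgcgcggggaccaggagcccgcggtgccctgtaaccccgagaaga
MSRB3, chr12:65927410-65927609: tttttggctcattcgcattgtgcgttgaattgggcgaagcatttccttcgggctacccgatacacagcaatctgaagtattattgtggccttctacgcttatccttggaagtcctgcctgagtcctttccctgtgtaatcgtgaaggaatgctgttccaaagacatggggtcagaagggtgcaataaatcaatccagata

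The members scored low within their library. Their median score was 70.7 (quartiles 58.5 and 91.2, n = 2028), against 178 for the 1762 shared peaks. A shared peak scored higher than a member in a fraction of 0.889 of all pairs of 1 shared peak and 1 member. The share of replicate 2 peaks that were members fell from 91.7% of the 630 peaks scoring 50 to 60, through 71.2% of those at 80 to 100 and 17.8% of those at 150 to 200, to 1 of the 341 that scored 400 or more. That peak lay at HNRNPD and scored 415. In replicate 3, the shared peaks of low replicate 2 score were themselves close to the lower limit of that list. The 333 that scored under 100 in replicate 2 had a median of 63.4 in replicate 3, and the 775 that scored 200 or more had a median of 209. Most members lay far from any replicate 3 peak, at a median of 230063 bp, and 24 of them (1.18%) had one within 1000 bp. The members nearest to the limit of the rule were a peak near CDCP1 with a score of 62.5, whose edge lay 8 bp from a replicate 3 peak, and a peak near LGMN with 51.6 at 27 bp. Just outside the rule, the shortest overlaps of shared peaks were 513 bp near SMS (score 329) and 542 bp near CACNG6 (55.6).

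**Figure D1:**
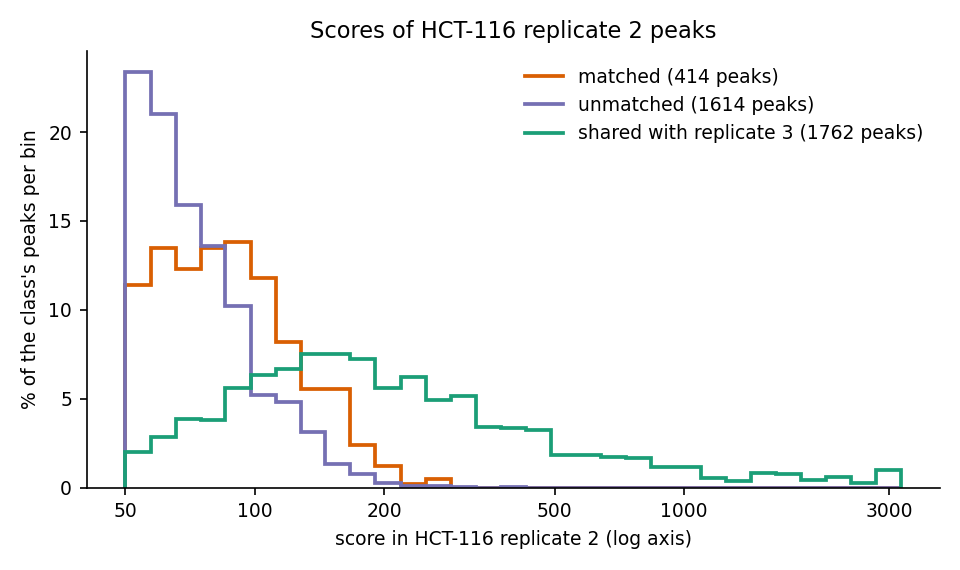
Distribution of scores in HCT-116 replicate 2 (x, log axis) as the percent of each class's peaks per bin (y) for matched members, unmatched members and peaks shared with replicate 3. Unmatched members crowd at the lower limit (median 67.8), matched members lie slightly above them (84.4) and shared peaks reach far higher scores (178).

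Of the 2028 members, 20.4% (95% exact binomial interval 18.7 to 22.2) overlapped a site of another line. Over all 3790 peaks of the library the share was 38.7%, and over the shared peaks it was 59.8% (57.4 to 62.1). All intervals given for shares cover counting error only, since peaks of 1 library are not replicates. T47D sites met the most members, 310 (15.3%), against 82 (4.04%) for A549 and 76 (3.75%) for PC-3, and T47D also had the most sites, 2065 against 1041 and 970. Of the matched members, 369 met sites of 1 line, 36 of 2 lines and 9 of all 3 lines. In every one of the 6 other libraries, fewer members than shared peaks were met. The gap was smallest in A549 replicate 3, with 4.78% of members and 30.2% of shared peaks, and largest in PC-3 replicate 2, with 16.3% and 54.9%. Averaged over replicates and then lines, the members' share was lower by 29.1 percentage points (exact sign-flip test over 3 lines, two-sided, p = 0.25, the smallest that 3 lines allow). A further 430 unmatched members (26.6%) met a peak found in only 1 replicate of another line, 166 of them in PC-3, 259 in T47D and 80 in A549. The remaining 1184 (73.4% of the unmatched) met no peak in any of the 6 libraries. With a peak of either replicate taken as a site, 844 members were matched, and with a score of 100 or more demanded in the other lines, 137 were.

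Matched members scored higher than unmatched members. Their median was 84.4 (quartiles 65.4 and 109) against 67.8 (57.7 and 86.3), the matched member was higher in a fraction of 0.655 of all pairs, and 71% of the matched (66.4 to 75.3) lay above the unmatched median. The classes overlapped over most of their range, from 50.3 to 279 for matched and from 50 to 415 for unmatched members. Among members scoring 100 or more the fraction of pairs was 0.558. The median rose with the number of lines whose sites were met, from 84 for 1 line to 99.6 for 2 and 101 for 3, the last over 9 peaks. The matched share rose with the score, from 11.2% (8.79 to 14.1) of the 578 members scoring 50 to 60 to 26.8% of the 370 at 80 to 100 and 47.5% (34.6 to 60.7) of the 61 at 150 to 200. Shared peaks of the same scores were matched more often in each of the 6 score ranges up to 400, and members minus shared peaks gave between -17.9 and -5.91 percentage points. The interval of the difference did not include 0 at 50 to 60 (-13.8, -27.2 to -3.58), 60 to 80 (-9.79, -18.3 to -2.44) and 100 to 150 (-15.1, -22.3 to -7.69), and it did in the other 3 ranges.

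**Figure D2:**
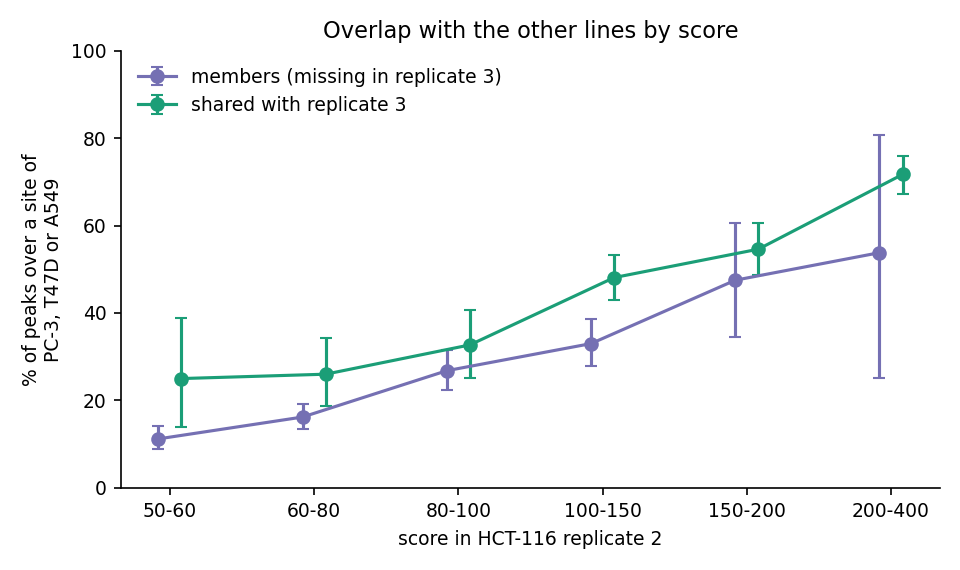
Percent of HCT-116 replicate 2 peaks over a site of PC-3, T47D or A549 (y) by their score (x), for members and for peaks shared with replicate 3. Bars are 95% exact binomial intervals. Both series rise with score, and the members lie below the shared peaks in each range (11.2% against 25% at scores of 50 to 60).

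Of the 10 highest-scoring matched members, 5 spanned a protein-coding start. The strongest was intergenic on chromosome 11, 39446 bp from its nearest start, the olfactory receptor gene OR4D9, and scored 279. It met peaks in both PC-3 replicates (81.3 and 98.7), in A549 replicate 2 (123) and in T47D replicate 1 (175), and none in A549 replicate 3 or T47D replicate 2. Peaks at the start of DDX42, an RNA helicase gene, scored 277 in HCT-116 replicate 2, 68.1 and 79.5 in T47D replicates 1 and 2, and were listed nowhere else. The intronic KCTD1 member scored 229 and met an A549 site of 535 and 163 and a T47D site of 152 and 98.7, together with a peak of 92.1 in PC-3 replicate 2. T47D sites alone met the members at SRCAP (206 in HCT-116 replicate 2, 129 and 131 in T47D), a chromatin remodelling ATPase gene, and at EMC9 (183, then 114 and 128), which encodes a subunit of the endoplasmic reticulum membrane complex. The same held for CCDC86 (209, then 56.8 and 57.5) and for TNRC18 (193, then 297 and 319), where PC-3 replicate 2 also had single peaks of 134 and 128. The member in an intron of LBH, a transcriptional regulator gene, scored 190.3 and met PC-3 (96.8 and 267) and A549 (201 and 81.5) sites but no T47D peak. A T47D site was met by 8 of the 10.

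Unmatched members of high score were partly present in single libraries of other lines. HNRNPD, which encodes an RNA-binding protein of AU-rich messages, held the strongest member of all (415), and T47D replicate 2 had a peak of 55.3 there. At the start of SHF (321) T47D replicate 1 listed a peak of 102, and near KCTD2 (266) single replicates of A549, PC-3 and T47D listed 63.3, 64.8 and 76.2. PTBP1, a splicing regulator gene, had 195 in HCT-116 replicate 2 and 94.9 in 1 replicate each of PC-3 and T47D. LRRC37A3 had 219, with 68 in PC-3 replicate 1 and 90.8 in T47D replicate 1, and CYB5D2 had 227, with 58.1 in T47D replicate 2. Met by no peak in any other library were the members at RPS21 (265), which encodes a protein of the small ribosomal subunit, far from MSRB3 (224), in an intron near TXNDC5 (197) and 50936 bp from MRPL33 (192). The MSRB3 member lay 2110 bp from a replicate 3 peak and contained no core motif over its 1444 bp.

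Sites of all 3 other lines met 9 members, which are named here after their values were seen. SRGAP3 had a member of 214 at its start that met peaks of 54.7 and 104 in A549, 80.1 and 121 in PC-3 and 255 and 285 in T47D. PCF11, a factor of messenger RNA 3′ end cleavage, had 163 and met 94.7 and 72.8, 105 and 193, and 276 and 294 in the same libraries. An intronic member 26467 bp from the start of CCN4, a secreted matricellular protein gene, scored 148 and met peaks of 708 and 2987 in PC-3, 883 and 1283 in T47D, and 372 and 309 in A549. In an intron of RIN2 the member scored 63.9 and met peaks of 298 and 500 in PC-3, 428 and 360.1 in A549, and 55.3 and 53.4 in T47D. The other 5 lay nearest to PIGP (133), MALSU1 (101), HES1 (97), ZNF614 (78.8) and CTNNA3 (72.1). Every one of the 9 lay at least 32392 bp from any replicate 3 peak, the distance at SRGAP3.

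The distance to gene starts differed little between matched and unmatched members taken as wholes. A promoter here is 2 kb on either side of the start of a protein-coding gene's annotated span. Other transcription starts of a gene were not used, so a member over one of them could count as away from promoters. Promoters so defined were overlapped by 61.1% (56.2 to 65.8) of matched members, 57% (54.6 to 59.5) of unmatched members and 53.4% (51 to 55.7) of shared peaks. The matched minus unmatched difference was 4.07 percentage points (95% Newcombe interval -1.27 to 9.25), and unmatched members exceeded shared peaks by 3.66 (0.298 to 7). The median distance from the peak centre to the nearest protein-coding start was 454 bp for matched members (quartiles 134 and 20186), 807 bp for unmatched members (168 and 22016) and 1652 bp for shared peaks. Centres within 500 bp of a start made up 51% of matched, 43.3% of unmatched and 38.8% of shared peaks, and centres over 50 kb away 13.3%, 15.3% and 18.9%. Of the matched centres 28.7% lay in introns, 24.4% in UTRs, 8.7% in other exons and 38.2% between protein-coding genes, and of the unmatched 30.4%, 22.6%, 9.55% and 37.5%. When a replicate was left out, every peak of that line's other replicate was taken as a site, with no second replicate required. On that looser rule the promoter difference turned to -2.31 without A549 replicate 3 and to -1.26 without PC-3 replicate 1. The difference of the median distances, matched minus unmatched, turned from -354 bp to 384 and 157 bp.

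The position of matched members depended on the line. Members over T47D sites lay at promoters in 233 of 310 cases (75.2%, 70 to 79.9), those over PC-3 sites in 24 of 76 (31.6%, 21.4 to 43.3) and those over A549 sites in 17 of 82 (20.7%, 12.6 to 31.1). Against the members matched in no line, T47D-matched members were at promoters more often by 18.1 percentage points (12.5 to 23.2), and the differences for PC-3-matched and A549-matched members were -25.5 (-35.1 to -14.1) and -36.3 (-44.1 to -26). Both replicates of each line gave the same direction. Members met by T47D replicate 1 exceeded those not met by 23.3 percentage points (75.9% against 52.7%) and by replicate 2 by 23.8, while PC-3 gave -22.3 and -11 and A549 -35.5 and -37. The lines' own sites differed in the same order, with promoters at 51.6% of T47D, 33.8% of PC-3 and 24.2% of A549 sites. Where the sites lay over no HCT-116 replicate 2 peak these shares were 29.8%, 11.8% and 6.69%. The 279 members matched in T47D only had a median distance of 239 bp to a start, the 48 matched in A549 only 36718 bp and the 42 matched in PC-3 only 23206 bp. None of the 14 members over sites of both PC-3 and A549, and not T47D, lay at a promoter (an upper limit of 23.2%). The median ratio of observed to expected CpG over the central 1000 bp was 0.799 for T47D-matched, 0.396 for PC-3-matched and 0.331 for A549-matched members.

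**Figure D3:**
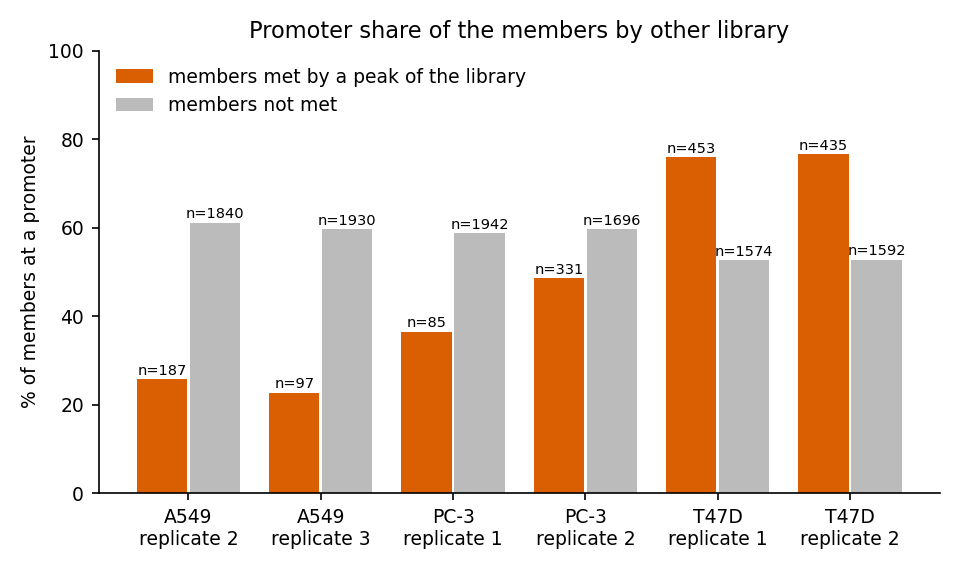
Percent of members that overlap a promoter (y, bars from 0) for each of the 6 other libraries (x), divided into members met by a peak of that library and members not met, with the number of members above each bar. Met members are above the others in both T47D libraries (75.9% and 76.6%) and below them in the PC-3 and A549 libraries (22.7% to 48.6%).

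The HIF core motif was common at the centres of both kinds of member, and more so in the matched when the lines were pooled. ACGTG or GCGTG on either strand stood in the central 200 bp of 72.7% (68.1 to 76.9) of matched members, 63.5% (61.1 to 65.9) of unmatched members and 73% (70.9 to 75.1) of shared peaks. The same windows 5 kb away on each side held it in 24.5%, 25.3% and 24.6%, and windows of 200 bp centred on all 20113 protein-coding starts in 42.7%. Matched members exceeded unmatched ones by 9.16 percentage points (4.11 to 13.9) and differed from shared peaks by -0.321 (-5.24 to 4.27), while unmatched minus shared peaks gave -9.48 (-12.6 to -6.34). By line, against the members matched in none, the interval was clear of 0 for T47D-matched members (11, 5.34 to 16.1) and included 0 for PC-3-matched (2.24, -9.19 to 12.2) and A549-matched members (4.75, -6.2 to 14.1). The pooled difference was of similar size within score ranges, at 8.74, 8.54 and 9.02 for low, middle and high scores when the members were divided into 3 equal groups, of which the interval excluded 0 in the last (1.44 to 16.1). At promoters 75.5% of matched and 67.1% of unmatched members held the motif, a difference of 8.43 (2.05 to 14.2), and away from promoters 68.3% and 58.9%, a difference of 9.45 (1.09 to 17.1). Over whole peaks, which are over 1 kb wide at the median, it was in 98.6% and 95.8%. The E-box CACGTG, which contains ACGTG, stood in 9.18% of matched and 11% of unmatched centres, a difference of -1.86 (-4.77 to 1.62), against 5.85% of the windows at all starts. All these motifs contain CG, and the windows 5 kb away and at all starts were not matched for base composition. The median ratio of observed to expected CpG over the central 1000 bp was 0.766 for matched members, 0.722 for unmatched members and 0.726 for shared peaks.

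The AP-1 letters TGANTCA, bound by JUN and FOS dimers, were in the central 200 bp of 11.4% of matched and 11.2% of unmatched members (difference 0.131, -3.03 to 3.84) and of 12.9% of shared peaks. In windows 5 kb away the shares were 4.95%, 6.11% and 6.08%. They were found mostly away from promoters, in 23.6% of matched and 22.7% of unmatched members there, and at promoters in 3.56% and 2.61%, near the 3.87% of all starts. Among members away from promoters the letters stood in 17 of 52 over PC-3 sites (32.7%, 20.3 to 47.1), 21 of 65 over A549 sites (32.3%, 21.2 to 45.1) and 11 of 77 over T47D sites (14.3%, 7.35 to 24.1). Some of these members lay over sites of more than 1 line, and the difference between lines was not tested. A match of letters is a description and does not show which factor was bound.

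**Figure D4:**
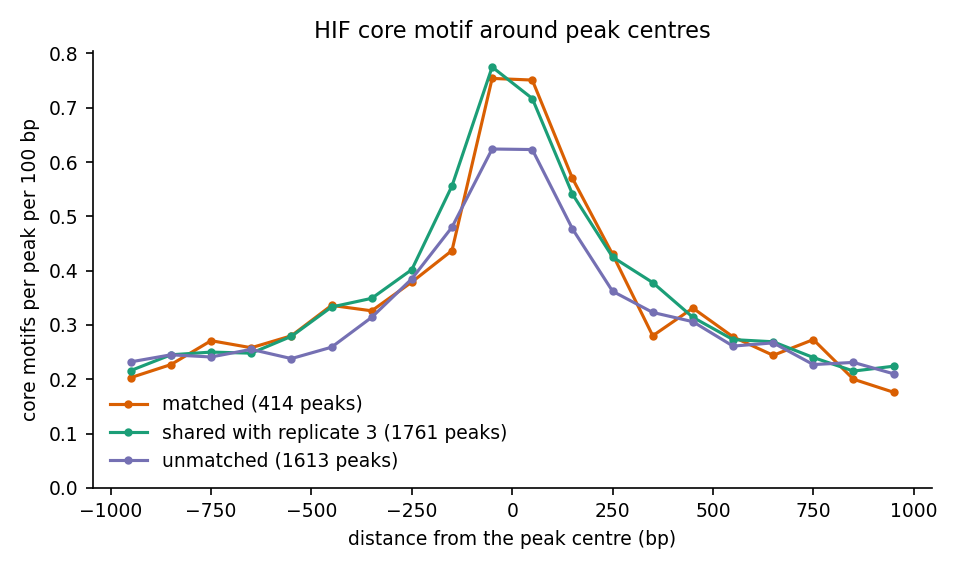
Core motifs (ACGTG or GCGTG, both strands) per peak in bins of 100 bp (y) by distance from the peak centre (x) for matched members, unmatched members and shared peaks. All 3 classes peak at the centre, at 0.754 for matched, 0.624 for unmatched and 0.775 for shared peaks in the 100 bp before it, and fall towards 0.2 at 1000 bp.

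At promoters of HIF target genes, members were found at about the share seen over all genes, and shared peaks far more often. Of 64 genes on 4 lists of HIF targets, 4 had a member at the promoter (6.25%), against 7.15% of all 20136 protein-coding genes, and 42 had a shared peak there (65.6%), against 5.58%. Of the 4 genes, 2 had no shared peak at the promoter. A promoter that already holds a shared peak leaves less room for a separate member, so the 6.25% is not independent of how members were chosen. Within 25 kb of the start 15 had a member (23.4%, against 13.4% of all genes) and 50 a shared peak (78.1%, against 10.8%). For 4 genes, SLC2A3, PFKFB3, P4HA2 and NDRG1, members were the only replicate 2 peaks within 25 kb. The 16 members concerned had a median score of 67.2, against 70.7 for all members, and 4 of them were matched. A replicate 3 peak lay within 25 kb of 12 of the 16 and within 5 kb of 6, compared with 12.7% and 4.14% of all members, and 11 of the 15 genes also carried a shared peak.

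Among the genes of pH control and secreted factors, CA9, which encodes the cell-surface carbonic anhydrase IX, had a member across its start that scored 52.1 in HCT-116 replicate 2. At the same place A549 had peaks of 189.6 and 208 and T47D of 57.8 and 82.3, and neither PC-3 replicate had one. The nearest shared HCT-116 peak within 25 kb of CA9 lay 14982 bp from its start and scored 368 in replicate 2 and 172 in replicate 3. VEGFA, the vascular endothelial growth factor gene, had a member of 84.8 at its start, 307 bp from a replicate 3 peak. The T47D peaks over it, of 376 and 206, also covered the shared HCT-116 peak 628 bp beyond the start, which scored 162 in replicate 2 and 98.3 in replicate 3. ADM, the gene of the vasodilator adrenomedullin, had members of 88.3 across its start and 91.9 at 3841 bp, on either side of a shared peak of 2314, and A549 replicate 2 had a peak over the second. The centre of the first lay nearest to the start of SBF2 (444 bp) and that of the second to AMPD3 (1131 bp). The member 3911 bp from the start of the lactate exporter gene SLC16A3 scored 54 and lay 198 bp from the start of CCDC57.

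Among the glycolytic genes no member lay at a promoter, while 17 of the 22 had a shared peak there. Members within 25 kb scored 57.7 for SLC2A1 and 75.2 for SLC2A3, both glucose transporter genes, 67.4 for PFKFB3, which makes an activator of phosphofructokinase, and 54.9 for the enolase gene ENO2. All 4 were unmatched, and only that of SLC2A1 met any other peak, one of 50.8 in PC-3 replicate 2. The member named for SLC2A3 lay nearer to the start of FOXJ2, at 5577 bp, and that named for ENO2 nearer to C12orf57. Of the oxygen-sensing and collagen enzymes, P4HA2 (collagen prolyl hydroxylase) had a member of 52.6 at 688 bp, PLOD1 (lysyl hydroxylase) one of 70.1 at 24864 bp and KDM4B (a histone demethylase) one of 53.5 at 2040 bp. None of these met a peak in another line. By its centre the P4HA2 member lay nearer to the start of SLC22A4 (411 bp), and the PLOD1 member to that of KIAA2013 (17797 bp). Of the genes of stress and transcription, MXI1, a MYC antagonist of the MAX network, had the strongest member, 216 with its centre in an intron. It lay 18188 bp from the start of the annotated MXI1 span. Other MXI1 starts were not used, so this distance does not place the member away from every MXI1 promoter. It met T47D peaks of 66.4 and 76.1 and held 50 core motifs over its 1806 bp. NDRG1 had 60.8, with 69.3 and 69.5 in PC-3 and 68.2 in A549 replicate 2. The hypoxia-induced repressors BHLHE40 and BHLHE41 had unmatched members of 87.7 and 67.1, where PC-3 replicate 2 alone had peaks of 68.7 and 183. The centre of the BHLHE41 member lay nearer to the start of SSPN, at 7442 bp.

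**Figure D5:**
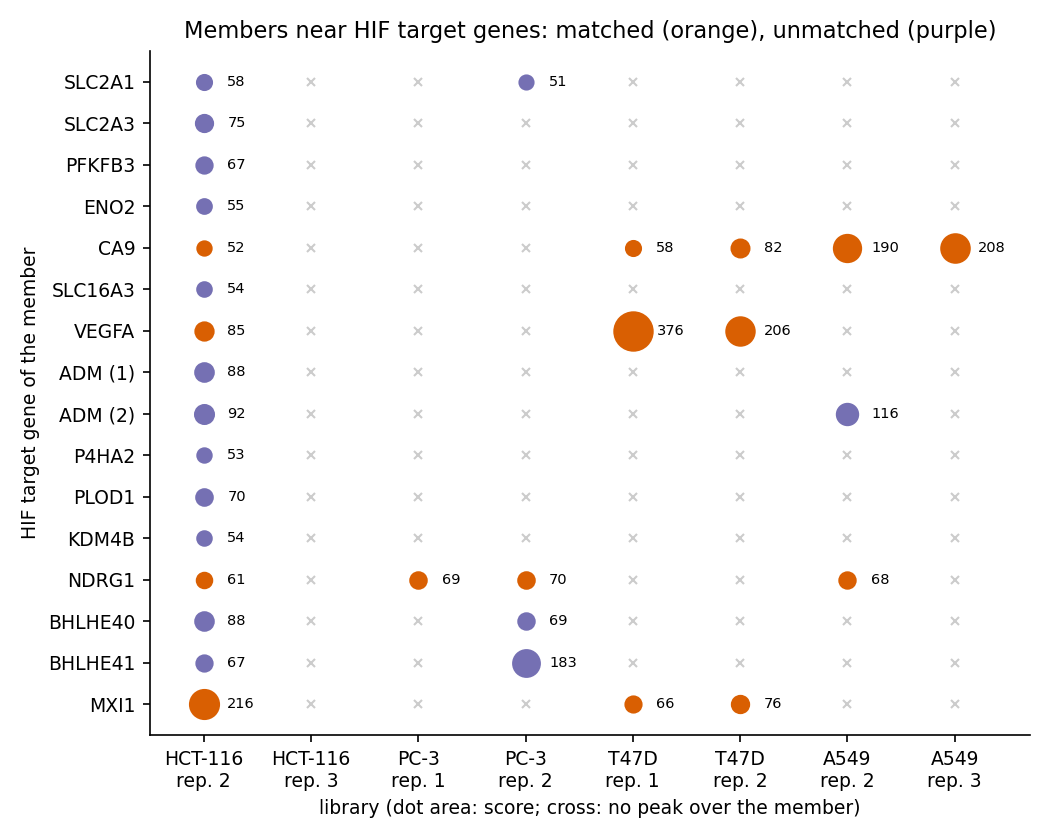
Scores (dot area, value beside the dot) of the 16 members within 25 kb of a HIF target gene (y) in each of the 8 libraries (x), with a cross where no peak overlapped the member. Column 2 is empty by the choice of members. CA9 scores 52.1 in HCT-116 and 189.6 and 208 in A549, and 8 of the members are met by no other library. Scores of different libraries are not known to be on a common scale.

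For a reader to see the letters at these loci, 30 bases around the core motif nearest the centre of each of 6 members are given (GRCh37, plus strand), with core letters and their complement in capitals. The first 3 members were matched and the last 3 unmatched. BHLHE41 holds the full palindrome CACGTG, 4 bp from the centre, and SLC2A3 and P4HA2 hold their motif 8 and 20 bp from it. For CA9 and VEGFA the motif lies 109 and 56 bp from the centre, and for MXI1 25 bp.
CA9, chr9:35673895-35673924: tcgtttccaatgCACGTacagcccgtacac
VEGFA, chr6:43737457-43737486: gagtgagtgtgtGCGTGtggggttgagggc
MXI1, chr10:111986415-111986444: tgaggagcgcgcGCGTGaggggaggggcga
SLC2A3, chr12:8179729-8179758: tcctgcctagccCACGTtcccgggccggag
P4HA2, chr5:131629682-131629711: ccctccgcgcccCACGCGTGgcagcctaag
BHLHE41, chr12:26267464-26267493: atgtgcgggcaCACGTGacagcgccgcgtc

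At the promoters of all protein-coding genes, 1.55% had a matched member and 5.6% an unmatched one. Lists of genes of basic cell functions were set beside these shares and beside the 7.15% for any member. Among the 87 cytosolic ribosomal protein genes, 4 had a matched and 9 an unmatched member at the promoter, 13 in all (14.9%), and 3 had a shared peak (3.45%). The leading ones were RPS21 (265) and RPS6 (124), both unmatched, and RPL3 (118), with T47D peaks of 53.6 and 134. Of 39 proteasome subunit genes 6 had a member (15.4%) and 1 a shared peak. PSMD9 (127) and PSMD14 (111) were met in no other library, and PSMD5 (79.8) met T47D peaks of 85.1 and 112. Of 63 replication-dependent histone genes 11 had a member (17.5%), none matched, and 3 a shared peak. These 11 genes shared 6 peaks of median score 91.8, since neighbouring histone genes lie under the same peak, as H2AC6 and H2BC4 did (117). The member at H4C4 scored 99.5. Shares were lower for 3 other lists. Members were at the promoters of 6 of 78 mitochondrial ribosomal protein genes (MRPL12 at 148, MRPS34 at 94.8, MRPS15 at 67.9). They were at those of 4 of 86 nuclear genes of oxidative phosphorylation (NDUFS7 at 76.9, NDUFA10 at 71.8, NDUFB9 at 63.3). Of C2H2 zinc finger genes 36 of 476 had one (ZNF692 at 163, ZNF23 at 156, ZNF76 at 134). Of these 3 lists, 7.69%, 4.65% and 7.56% of genes had a member and 7.69%, 3.49% and 6.09% a shared peak. The lists were compared by counts alone, and no set test was made.

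Of 15 immediate early and AP-1 genes, which respond within minutes to growth factors and stress, 5 had a member at the promoter (33.3%) and 2 a shared peak (13.3%), against 7.15% and 5.58% of all protein-coding genes. FOSB (124) and IER2 (118) were unmatched and met by no other library. JUN (71.2) met T47D peaks of 87.2 and 99.8 and a peak of 53.1 in A549 replicate 3. FOSB was also the nearest gene to 3 members, scoring 57.8 to 124. Of 13 circadian genes, 2 had a member at the promoter (15.4%) and 5 a shared peak (38.5%). This list includes BHLHE40 and BHLHE41, which are also on the HIF lists and each had a shared peak across the start. NR1D1, a repressor of the clock, had unmatched members of 174 and 80.3, the second with a peak of 93 in T47D replicate 2, and the period gene PER1 had one of 73.3 over a T47D site (112 and 52.7). Of 20 intestinal and epithelial genes, 2 had a member at the promoter (10%) and 0 a shared peak, counts near the shares over all genes. These were the keratin gene KRT19 (77.1) and the E-cadherin gene CDH1 (72.1), both met in no other library. Of the 7 aryl hydrocarbon receptor targets 0 had a member within 25 kb, against 13.4% of all genes, and 2 had a shared peak, against 10.8%, a list too short to read against those shares. The 2027 members on the main chromosomes had 1868 different nearest protein-coding genes, and 144 genes were nearest to 2 or more. The largest number, 4, was found for DHRS3, NTMT1 and PDP1, which are named after their counts were seen. None of the members of NTMT1 and PDP1 was matched, against 2 of those of DHRS3.

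In the other lines the peaks over matched members were of middling rank within their own lists. Their median score percentile was between 39.3 in PC-3 replicate 1 (79 peaks) and 56.4 in T47D replicate 1 (312 peaks). Peaks over HCT-116 sites ranked higher in all 6 libraries, from 60.5 in PC-3 replicate 1 to 73.4 in T47D replicate 2, and the mean difference over lines was -15 percentile points (exact sign-flip test over 3 lines, two-sided, p = 0.25, the smallest possible). Peaks that met no HCT-116 replicate 2 peak had medians of 38.8 to 43, below the matched members' peaks in 5 libraries and level with them in PC-3 replicate 1 (39.5 against 39.3). Matched members' peaks minus this last class gave a mean over lines of 11.1 points. Each comparison was repeated among peaks in sites of both replicates, which leaves single-replicate peaks out. Against peaks with no HCT-116 replicate 2 peak the difference was then -1.08 points (exact sign-flip test over 3 lines, two-sided, p = 0.75). Against peaks over HCT-116 sites it was -16.1 points (exact sign-flip test over 3 lines, two-sided, p = 0.25, the smallest possible).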

How the data were processed

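Peak lists of HIF-1β ChIP-seq from 8 libraries (PC-3, T47D, A549 and HCT-116, 2 replicates each) were used as deposited. Per the labels and the study's methods, MACS peaks were made by the authors for every library on its own, after trimming with Trim Galore 0.3.3 and alignment with BWA 0.7.5a-r405 to GRCh37. The methods also required support from T-PIC, which is another caller. Whether these lists had passed that step is not given in the sources used here. Each deposited list gives an interval, a name and a score, whose definition is not given in the sources used here. Lists hold no reads, so depth is unknown and intervals cover counting error only.

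From the lists, overlaps of at least 1 bp were counted, and regions with peaks of both replicates were taken as sites. Starts, exons and UTRs came from GENCODE release 44 lifted to GRCh37, for 20136 protein-coding genes. The start of a gene was the 5′ end of its annotated span. Other transcript starts were not used for promoters or distances. One unmatched member lay outside the main chromosomes and has no gene or motif value. Motifs were searched on both strands. Shares have 95% exact binomial intervals and differences 95% Newcombe intervals. The only test was an exact sign-flip test over 3 lines.

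Genes named were those nearest the 10 highest-scoring matched and 10 highest-scoring unmatched members, HIF target genes with a member within 25 kb, and up to 3 genes of each other list with a member at the promoter. One sequence that this rule selects is not reported here. The members and lists were chosen with earlier results of these data known. Alternatives were other overlaps, score limits, windows, annotations and each library left out. With a library left out, every peak of that line's other replicate counted as a site. Overlap and motif counting were tested on simulated data. Python 3.11.15, NumPy 2.4.6, pandas 2.3.3, SciPy 1.17.1, pysam 0.24.0, Matplotlib 3.10.9, bedtools 2.31.1 and samtools 1.23.1 were used.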

Additional observations from a re-analysis of the deposited data

Results flagged for a closer look

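The promoter share of members moved in opposite directions with the line whose peaks met them. Members met by T47D peaks were at promoters more often than those not met, by 23.3 percentage points in replicate 1 and 23.8 in replicate 2. Members met by A549 peaks were there less often (-35.5 and -37 in replicates 2 and 3), as were those met by PC-3 peaks (-22.3 and -11 in replicates 1 and 2). The difference between lines itself was not tested.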

How the results depend on the processing

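Of 71 alternatives, 54 kept a result's direction and stayed within its counting interval or tolerance, which is wide for the promoter, motif and distance differences. The count of matched members went from 414 to 844 with a peak of either replicate and 137 with a score of 100 or more in the other lines. It was 135 with sites of PC-3 and A549 only, and ranged from 420 to 574 with a replicate left out. Leaving a replicate out also loosened the site rule, since every peak of that line's other replicate then counted as a site. The fraction of pairs in which a matched member scored higher was 0.558 among members scoring 100 or more. The promoter difference ranged from -2.31 (without A549 replicate 3) to 10.4 (without T47D replicate 1 or replicate 2) with a replicate left out, and was -1.26 without PC-3 replicate 1. It was -0.269 among the lowest-scoring of 3 equal groups of members. Set against members matched in no line, it was -25.5 for members over PC-3 sites, -36.3 over A549 sites and 18.1 over T47D sites. The core motif difference was 2.7 over whole peaks and kept its sign in all 19 alternatives. Set against members matched in no line, it was 2.24 (-9.19 to 12.2) for members over PC-3 sites. Over A549 sites it was 4.75 (-6.2 to 14.1) and over T47D sites 11 (5.34 to 16.1). The difference of median start distances ranged from -693 to 384 bp with a replicate left out. The percentile difference was 11.1 points against peaks with no HCT-116 replicate 2 peak. Settings by single line, and percentiles within sites, were chosen after seeing the data, and where values moved the cause was not tested. No paired analysis was possible because all members came from 1 library and no result compared same-numbered samples. What depth limits could not be assessed, since the lists hold no reads.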
